A study of Mus musculus with 47 samples.

Results

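The comparison covered 7 of the 47 libraries of the study, 4 of neonatal mTEClo from EEDcKO mice and 3 from Ctrl mice, chosen by the fraction, age class and genotype in their labels. Across them 20196 of the 55471 listed genes were tested, out of 44971 with a count in any neonatal library. The mTEClo fraction is medullary thymic epithelium with low surface MHC class II, here of C57BL/6 mice, sorted for EpCAM and against CD45 and Ly51. EEDcKO mice carried a floxed Eed gene that Foxn1-Cre deletes in thymic epithelial cells, cortical as well as medullary. The Ctrl genotype is given in the labels only as control. Ctrl replicates 1 and 2 were from mice aged 2 to 3 days and replicate 3 from mice aged 1 day. EEDcKO replicate 1 was from mice aged 2 to 3 days, replicate 2 from mice aged 1 day, replicate 3 from mice aged 6 days and replicate 4 from mice aged 4 days. Replicates 3 and 4 of EEDcKO were therefore older than every Ctrl library, and each count below that moved by over 1.5 times without them is given with its age-matched value. The titles of replicates 3 and 4 also lack the bracketed code that the other titles carry. Whether they were prepared separately is not stated. Ctrl replicate 1 was female, Ctrl replicate 2 male and Ctrl replicate 3 pooled from both sexes. EEDcKO replicate 3 was female and EEDcKO replicates 1, 2 and 4 were pooled from both sexes, so the groups differ in sex. The labels do not say whether every replicate came from different animals, so p-values measure the spread between these libraries.

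Polycomb repressive complex 2 (PRC2) methylates lysine 27 of histone H3 and keeps developmental genes silent. EED is the subunit that binds this mark and stimulates the catalytic subunits EZH1 and EZH2, and SUZ12 holds the complex together. Its best known targets are genes of developmental transcription factors with CpG-rich promoters and the Cdkn2a locus. In the thymus the medullary epithelium presents proteins of other tissues to developing T cells, partly through Aire and partly through mimetic cells, which are epithelial cells that take on the gene programmes of tuft, muscle, endocrine, intestinal and other cells.

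The deposited counts summed to between 1805331 and 4650379 per library. Levels are given as CPM, the usual counts per fixed library total, with totals adjusted by the trimmed mean of M values. Over log2 CPM of the tested genes, Pearson's r lay between 0.966 and 0.979 for pairs of Ctrl libraries, between 0.938 and 0.972 for pairs of EEDcKO libraries and between 0.894 and 0.928 for pairs across the groups. A gene was called when edgeR's quasi-likelihood test gave a Benjamini-Hochberg adjusted p under 0.05 with a change of at least 2-fold. By this rule 15.7% of the tested genes were called, 9.51% higher and 6.22% lower in EEDcKO, and the log2 fold change over all tested genes had a median of -0.00575. The shares of 9.51% and 6.22% are the background for every count of called list members below. The CPM of the groups did not overlap for 36.5% of the genes. Among 16099 protein-coding genes 1629 were called higher and 940 lower, whereas among 610 pseudogenes 23 were called higher and 56 lower. With only EEDcKO replicates 1 and 2 against Ctrl, 1531 genes were called higher and 1094 lower. In bulk RNA a lower level from fewer cells of a type cannot be told apart from less RNA per cell, and this holds for every change below.

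**Figure D1:**
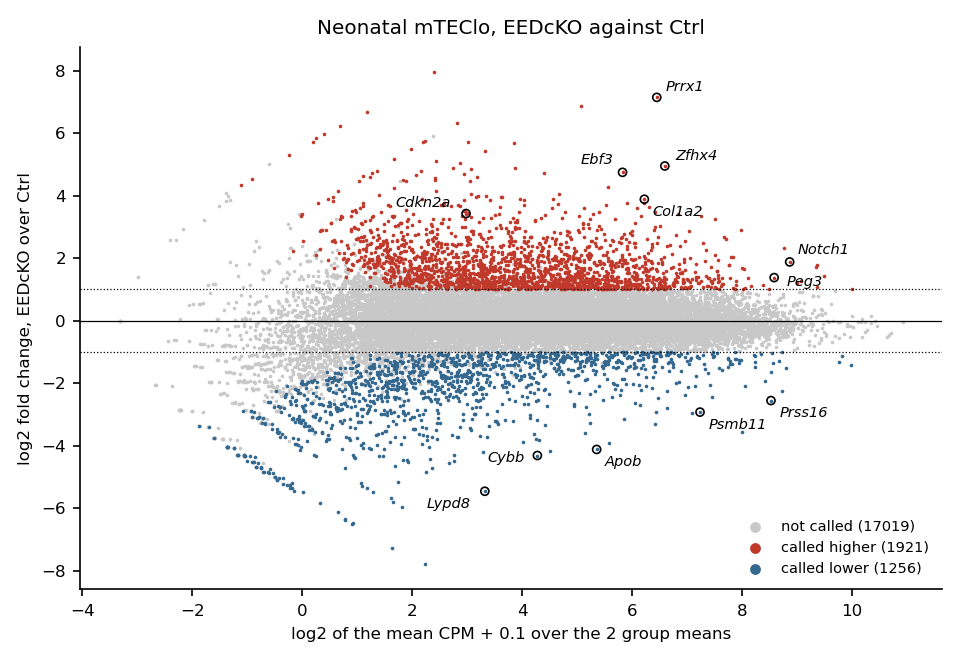
Log2 fold change of EEDcKO over Ctrl in neonatal mTEClo for the 20196 tested genes, against the log2 of the mean CPM of the group means plus 0.1. Red points are the 1921 genes called higher and blue points the 1256 called lower, the dotted lines mark the 2-fold limits, and the circled genes are described in the text. Changes in both directions reached genes of high level, such as Notch1 and Prss16.

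The targeted gene was reduced without being called. Eed (ENSMUSG00000030619, chr7:89954654-89980983 on GRCm38) had 23.3, 23.5 and 25.9 CPM in the Ctrl libraries and 15.8, 14.4, 14.1 and 16.4 CPM in the EEDcKO libraries. The groups did not overlap, and the log2 fold change was -0.67 ± 0.22 (SE; edgeR's quasi-likelihood test, adjusted p = 0.023). A gene-level count includes reads from exons outside a deleted stretch and from cells that kept the gene, so this value does not measure how many cells lost EED. None of the 6 core subunits was called, with a median of -0.318. Ezh2 had a log2 fold change of -0.23 ± 0.16, Ezh1 0.39 ± 0.17 and Suz12 -0.04 ± 0.14. The histone-binding subunits Rbbp4 and Rbbp7, which other chromatin complexes share, had log2 fold changes of -0.41 ± 0.10 and -0.69 ± 0.14, below the 2-fold limit with groups that did not overlap.

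Of 7 accessory subunits of PRC2, 2 rose. Epop, an accessory protein of PRC2, had 1.01, 1.75 and 0.563 CPM in Ctrl and 4.38, 7.904, 19.2 and 10.1 CPM in EEDcKO, with a log2 fold change of 3.14 ± 0.54 (adjusted p = 0.00015). Phf1, a subunit that recruits the complex to chromatin, changed by 1.65 ± 0.31 on the log2 scale (adjusted p = 0.00031). Among 20 subunits of PRC1, the complex that binds the mark laid by PRC2, 2 rose and none fell, a share of 10% against 9.51% of all tested genes. Bmi1, one of its core proteins, went from 17.6 ± 1.32 CPM (SD, n = 3) to 66.6 ± 4.34 CPM (SD, n = 4), a 3.78-fold rise. Cbx8, which reads the methyl mark, rose 2.26-fold.

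The 12 largest rises were taken among called genes without overlap of the groups and with a mean of over 3 counts per Ctrl library. They were led by regulators and by genes of connective tissue. Zfhx4, a zinc finger homeobox factor (ENSMUSG00000025255, chr3:5218526-5415857), had 5.74, 7.37 and 4.501 CPM in Ctrl and 220.2, 186, 177 and 166 CPM in EEDcKO. The lowest EEDcKO value was many times the highest Ctrl value. Ebf3 (ENSMUSG00000010476, chr7:137193673-137314445), a factor of the early B cell factor family that acts in nerve and connective tissue, had 4.05, 5.26 and 2.25 CPM in Ctrl and 132, 105, 93.8 and 107 CPM in EEDcKO. Twist1, a basic helix-loop-helix factor of mesenchyme, had 2.03, 0.701 and 3.38 CPM in Ctrl and 30.98, 30.9, 28.8 and 24.7 CPM in EEDcKO. Its log2 fold change was 3.91 ± 0.42 (adjusted p = 5.8e-07), and the EEDcKO values lay close together.

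Secreted proteins and receptors made up much of the rest of the 12. The neurotrophin receptor gene Ntrk3 had 2.03, 6.31 and 5.63 CPM in Ctrl and 150.2, 97.4, 62.9 and 48.2 CPM in EEDcKO. It was lower in the 2 older EEDcKO libraries than in the 2 younger ones, and each of those was still above all Ctrl libraries. Igf2, the imprinted growth factor, had 2.03, 2.46 and 4.501 CPM in Ctrl and 50.8, 60.4, 34.3 and 44.4 CPM in EEDcKO, a 16.5-fold rise (adjusted p = 1.7e-05). The collagen gene Col1a2 had 10.5, 7.37 and 10.7 CPM and 144, 141, 135 and 139 CPM, with a log2 fold change of 3.89 ± 0.31 (adjusted p = 1.1e-08). Its 4 EEDcKO values lay close together. Loxl1, which cross-links elastic fibres, and Adamts16, a secreted protease, rose 15.4-fold and 14.4-fold. Adamts16 varied most among the EEDcKO libraries, from 10.1 to 71.7 CPM. Plcl1 (phospholipase C-like), Slitrk4 (a neuronal membrane protein) and Chst5 (a sulfotransferase) had log2 fold changes of 3.95 ± 0.51, 3.90 ± 0.52 and 3.85 ± 0.54.

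The 12 largest falls, chosen without overlap and with a mean of over 3 counts per EEDcKO library, included the myeloid genes Cybb, Mrc1 and Acod1. Cybb (ENSMUSG00000015340, chrX:9435252-9487771), the phagocyte NADPH oxidase subunit, had 54.04, 32.3 and 24.2 CPM in Ctrl and 0.337, 2.51, 3.84 and 0.252 CPM in EEDcKO. Mrc1, the mannose receptor of macrophages, had 42.6, 39.3 and 20.3 CPM and 1.35, 5.39, 2.35 and 2.52 CPM, and Acod1, which makes itaconate in activated macrophages, 14.5, 14.7 and 6.75 CPM and 1.68, 1.08, 0 and 1.26 CPM. All 3 also fell or had lower means in mTEChi, where Cybb went from 115 ± 29.7 CPM to 22.5 ± 15.2 CPM. The Acod1 call was lost with the age-matched libraries (log2 fold change -3.11, adjusted p = 0.059).

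Apob, the apolipoprotein of chylomicrons and liver lipoproteins (ENSMUSG00000020609, chr12:7977648-8016835), had 126, 57.9 and 46.7 CPM in Ctrl and 2.02, 10.8, 4.69 and 1.26 CPM in EEDcKO. Rptn, a protein of the cornified layer of skin, had 115, 92.2 and 64.1 CPM and 1.35, 4.31, 11.7 and 4.795 CPM. The choice required that neither gene overlap between the groups. Their log2 fold changes were -4.12 ± 0.81 and -3.92 ± 0.58 (adjusted p = 0.00055 and 3.2e-05). Ces1f, a liver carboxylesterase, and Skint9, of the Skint family expressed in thymus and skin, have close paralogs with which reads can be shared. Their log2 fold changes were -3.70 ± 0.61 and -3.73 ± 0.53. The tight junction gene Cldn13 changed by -3.70 ± 0.50, the cartilage matrix gene Cilp by -3.59 ± 0.59 and the endothelin receptor gene Ednrb by -3.82 ± 0.60 on the log2 scale. The membrane protein gene Tmem169 and the endogenous retroviral gene Erv3 completed the 12, with 2.02, 3.95, 1.28 and 2.52 CPM and 0.673, 2.16, 0.6397 and 0.757 CPM in the EEDcKO libraries.

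**Figure D2:**
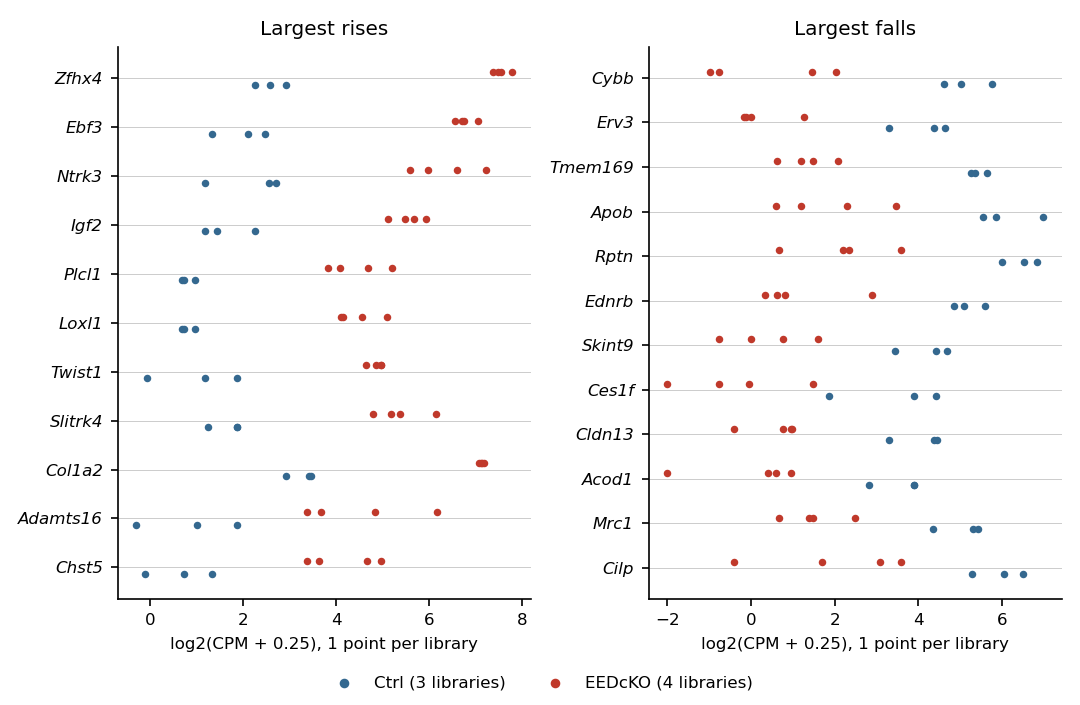
Level of 11 of the 12 genes with the largest rises (left) and of the 12 with the largest falls (right), as log2(CPM + 0.25), with 1 point per library. Blue points are the 3 Ctrl libraries and red points the 4 EEDcKO libraries, and the groups do not overlap for any of these genes because the choice required it.

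A further 216 genes had 0 counts in all 3 Ctrl libraries and a count in all 4 EEDcKO libraries, and 170 genes the reverse. A Ctrl library with 0 counts could hide up to 3 counts, or 1.69 CPM at the lowest depth, so folds against it are lower bounds. Rtl3, a gene derived from a retrotransposon, had 4.38, 6.47, 2.56 and 3.79 CPM in EEDcKO, at least 2.54-fold higher. The homeobox gene Hmx1 had 1.68, 2.51, 5.54 and 2.27 CPM, at least 1.78-fold higher. The unnamed transcript Gm37644 was at least 6.13-fold higher. The other 3 of the 6 highest, 4933405O20Rik, Gm48003 and Gm37403, were at least 1.72-fold, 1.69-fold and 1.51-fold higher. The bound fell to 1.03-fold at Hoxa6 and was below 1 for every gene of lower mean, so a rise is not shown for those. EEDcKO replicates 3 and 4 were deeper than every Ctrl library, so 216 and 170 cannot be compared directly.

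Many genes of developmental transcription factors rose. Hox genes, which set position along the body axis, passed the filter on low counts in 25 of 39 cases. Of these 15 were called higher and none lower, against 9.51% and 6.22% of all tested genes, and their median log2 fold change was 1.91. The 14 Hox genes under the filter had 0 to 8 counts over the Ctrl libraries and 3 to 48 over the EEDcKO libraries. Hoxc4 had 1.01, 1.403 and 0.563 CPM in Ctrl and 4.04, 5.39, 13.4 and 13.1 CPM in EEDcKO. Hoxa7 had 0.338, 0 and 0 CPM and 4.04, 8.26, 4.69 and 2.27 CPM. Levels stayed low in both groups, and Hoxb4 and Hoxc6 reached 5.95 ± 1.42 CPM and 8.76 ± 2.92 CPM (SD, n = 4). The number of Hox genes called dropped to 8 without Ctrl replicate 1. Hox genes as near 0 in Ctrl as Hoxa7 passed the filter only through other libraries and could not be called lower. The shares and medians of this list, and of later lists with such genes, partly reflect that filter.

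Of 96 other developmental homeobox genes 71 were tested, of which 32 were called higher and 3 lower. Their median log2 fold change was 1.20, or 1.04 when genes at 0 in a group are set at their bound. Prrx1 (ENSMUSG00000026586, chr1:163245119-163313710), a factor of limb and craniofacial mesenchyme, had 0.676, 2.104 and 0.563 CPM in Ctrl and 207, 192, 133 and 162 CPM in EEDcKO. Its log2 fold change was 7.15 ± 0.54 (adjusted p = 7.6e-09) on a mean of 3 counts per Ctrl library. The related Prrx2 had 0.338, 0.351 and 0.563 CPM and 10.1, 12.2, 14.1 and 14.9 CPM, and Irx5, an Iroquois factor, 0.338, 0 and 0.563 CPM and 8.42, 7.904, 11.1 and 6.56 CPM. Those values were near 0 in every Ctrl library and never under 6 CPM in an EEDcKO library. The 3 genes called lower were Pax7, Pax5 and Cdx1, factors of muscle stem cells, B cells and intestine. All 3 lost their call with the age-matched libraries, at log2 fold changes of -1.26, -1.56 and -1.28. Pax7 also lost it without Ctrl replicate 1, and Pax5 without Ctrl replicate 2 or EEDcKO replicate 1, 2 or 4. Cdx1 lost it without any one Ctrl replicate and without EEDcKO replicate 1 or 4. Without any one of Ctrl replicates 1 and 2 and EEDcKO replicates 1 and 4, 1 homeobox gene was called lower.

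Among T-box, Gata, Sox and Ebf factors 17 of 39 tested genes rose and 1 fell, with a median log2 fold change of 0.832. Gata6, a factor of heart and gut, had 0.338, 0.701 and 0.563 CPM in Ctrl and 14.1, 14.01, 15.6 and 14.9 CPM in EEDcKO. Gata3, which acts in T cells, skin and parathyroid, had 11.5, 10.9 and 5.63 CPM and 59.9, 86.2, 74.6 and 69.7 CPM, a 7.49-fold rise (adjusted p = 3.9e-07). Ebf4 rose 7.67-fold, and Tbx20, a cardiac factor, fell by 2.00 on the log2 scale, a call lost without Ctrl replicate 2 (-1.68, adjusted p = 0.094). Without Ctrl replicate 1 the number of genes called higher in this list was 11.

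Of 30 basic helix-loop-helix fate factors 9 rose and 3 fell. Scx, a tendon factor, and the inhibitors Id1 and Id3 had log2 fold changes of 3.67 ± 0.58, 2.37 ± 0.38 and 1.55 ± 0.30. Hand1, a factor of heart and placenta, had 5.404, 8.42 and 1.69 CPM in Ctrl and 0, 0.359, 0.6397 and 0 CPM in EEDcKO, and Bhlhe23, a neural factor, 4.39, 5.26 and 2.81 CPM and 0.673, 0.359, 0 and 0 CPM. Myf6, a muscle factor, was the third gene called lower and lost its call without Ctrl replicate 1 or 2 or EEDcKO replicate 1, 2 or 4. With the age-matched libraries 5 genes of the list were called lower.

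The starts of genes that fell were poorer in CpG than those of other genes. The first 250 transcribed bases, taken from GENCODE transcripts, were found for 99.9% of tested protein-coding genes. A window was counted as CpG-rich when its GC content was at least 50% and its observed over expected CpG ratio at least 0.6. By this measure 58.3% of genes called higher were CpG-rich (949 of 1628), 24.6% of genes called lower (231 of 939), and 60.7% of genes not called. The median CpG ratio was 0.688 for genes called higher, 0.369 for genes called lower and 0.720 for genes not called. This window was chosen after the data were seen, because the 250 bases before the start could be matched for only 66.9% of tested genes in the RefSeq table, which makes that comparison void. No test was run, and the share among rising genes was about that among all tested protein-coding genes, 58.4%.

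Starts of single genes show this range. The following are the 250 bases before the start from RefSeq on GRCm38.p6, each 5′ to 3′ on the strand of its gene, with every CG in capitals. Ebf3 (chr7:137314446-137314695, minus strand) and Cdkn2a (chr4:89294620-89294869, minus strand) rose and held 43 and 40 CG. Prrx1 (chr1:163313651-163313900, minus strand) rose more on the log2 scale and held 4. Psmb11 (chr14:54625060-54625309, plus strand) and Lypd8 (chr11:58378782-58379031, plus strand), a cortical epithelial and an intestinal gene, fell and held 4 and 0. The RefSeq starts of Psmb11, Cdkn2a and Prrx1 lie inside the wider gene intervals of GENCODE given for them, so their windows overlap those intervals. By the limits above 31.4% of the 27025 promoters in the RefSeq table, tested or not, were CpG-rich in this window. Among the tested genes matched there the share was 53.1%. Neither share can be set beside those of the transcribed bases, which are another window.
Ebf3: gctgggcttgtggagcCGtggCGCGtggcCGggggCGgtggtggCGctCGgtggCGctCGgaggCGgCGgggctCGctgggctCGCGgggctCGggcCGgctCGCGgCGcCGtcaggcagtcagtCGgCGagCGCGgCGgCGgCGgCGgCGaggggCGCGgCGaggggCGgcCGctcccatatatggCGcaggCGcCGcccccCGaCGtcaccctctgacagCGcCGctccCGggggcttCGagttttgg
Cdkn2a: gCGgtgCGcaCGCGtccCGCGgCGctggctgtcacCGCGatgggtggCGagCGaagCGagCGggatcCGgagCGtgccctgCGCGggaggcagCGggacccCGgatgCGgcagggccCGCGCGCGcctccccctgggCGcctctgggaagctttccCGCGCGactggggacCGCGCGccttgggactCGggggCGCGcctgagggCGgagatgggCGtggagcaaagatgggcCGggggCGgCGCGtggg
Prrx1: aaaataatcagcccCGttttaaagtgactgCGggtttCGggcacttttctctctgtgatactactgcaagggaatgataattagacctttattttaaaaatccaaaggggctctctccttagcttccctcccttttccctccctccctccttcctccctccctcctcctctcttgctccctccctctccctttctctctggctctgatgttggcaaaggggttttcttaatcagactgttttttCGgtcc
Psmb11: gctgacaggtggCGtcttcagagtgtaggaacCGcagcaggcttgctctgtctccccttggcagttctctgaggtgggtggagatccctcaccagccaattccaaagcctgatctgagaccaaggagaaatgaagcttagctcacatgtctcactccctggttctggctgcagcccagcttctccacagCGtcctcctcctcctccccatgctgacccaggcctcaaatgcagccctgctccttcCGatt
Lypd8: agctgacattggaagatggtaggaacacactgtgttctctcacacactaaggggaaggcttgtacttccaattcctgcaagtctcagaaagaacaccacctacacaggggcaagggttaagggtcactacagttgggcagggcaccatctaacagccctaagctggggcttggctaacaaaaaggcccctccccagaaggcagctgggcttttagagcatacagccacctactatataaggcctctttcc

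Inhibitors of cyclin-dependent kinases rose, and part of the division programme fell. Of 8 inhibitors 5 were called higher and none lower, with a median log2 fold change of 1.15. Cdkn2a (ENSMUSG00000044303, chr4:89274471-89294653), which encodes p16 and p19ARF, had 2.36, 0.701 and 0.563 CPM in Ctrl and 11.8, 14.7, 15.8 and 15.1 CPM in EEDcKO. Cdkn1a, which encodes p21, had 40.9, 39.98 and 35.4 CPM and 91.3, 105, 95.5 and 92.4 CPM. The imprinted Cdkn1c rose 3.25-fold (adjusted p = 0.00011). The neighbour of Cdkn2a, Cdkn2b, had 11.8, 14.4 and 10.1 CPM in Ctrl and 13.1, 25.1, 35.2 and 33.3 CPM in EEDcKO, with overlap. Its call was lost with the age-matched libraries, at a log2 fold change of 0.63, and without Ctrl replicate 3 or EEDcKO replicate 3.

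Of the 40 cell division genes none was called higher and 9 were called lower, with a median of -0.773 and with 38 of the 40 below 0. Top2a, the topoisomerase of dividing cells, had 327, 352 and 379 CPM in Ctrl and 153, 188, 91.7 and 123 CPM in EEDcKO. Nusap1, Bub1 and E2f8, genes of the spindle, its checkpoint and the cell cycle, had log2 fold changes of -1.32 ± 0.26, -1.26 ± 0.26 and -1.21 ± 0.26. Only 3 of the 40 were called lower with the age-matched libraries, and 16 were called lower without EEDcKO replicate 2, aged 1 day, which had the highest Top2a value of its group. Of 7 cyclins of the D, E and A types 2 rose and 1 fell, beside 9.51% and 6.22% of all tested genes. Ccnd3, a cyclin of the G1 phase, rose 2.92-fold. Ccnd1, its relative, had a log2 fold change of 1.02 ± 0.17, which crossed under the 2-fold limit with RLE scaling (0.97) and with the age-matched libraries (0.90). Ccna2, a cyclin of S phase, had -1.07 ± 0.21 and was not called with the age-matched libraries (-0.83). Without Ctrl replicate 2, 3 cyclins were called lower, and without EEDcKO replicate 3 none was.

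Many imprinted genes, which are expressed from 1 parental allele, rose. Of 41 tested members 21 rose and 1 fell, with a median of 1.38, and 20 rose with the age-matched libraries. Meg3 (ENSMUSG00000021268, chr12:109541001-109571726), a maternally expressed long noncoding RNA, had 30.4, 40.3 and 33.2 CPM in Ctrl and 409.8, 360, 262 and 283 CPM in EEDcKO. The paternally expressed genes Mest and Peg3 had 18.9, 20.3 and 25.9 CPM and 197, 181 and 263 CPM in Ctrl, against 153, 154, 112 and 109.8 CPM and 653, 568, 468 and 526 CPM in EEDcKO. Genes expressed from either parental allele were thus among those that rose. Sfmbt2, itself a Polycomb protein, rose 8.59-fold (adjusted p = 5e-08). Snrpn, a splicing protein of the paternal allele, was the only gene of the list called lower (-1.06 ± 0.25), and it was not called without Ctrl replicate 2 (-0.97). The counts were made without regard to strand and cannot give the allele.

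Developmental signalling genes rose far more often than they fell, beside 9.51% of all tested genes called higher and 6.22% lower. Of 56 Wnt ligands, receptors and antagonists 14 rose and none fell, with a median of 0.655. The ligand gene Wnt5a (ENSMUSG00000021994, chr14:28504750-28527448) had 11.5, 11.2 and 18.6 CPM in Ctrl and 138, 138, 99.6 and 98.7 CPM in EEDcKO. Ror2, a receptor for Wnt5a, had 4.39, 5.61 and 7.88 CPM and 66.3, 63.2, 46.3 and 61.3 CPM. A second ligand gene, Wnt11, rose 6.84-fold, and Dkk3, of the Dickkopf family of secreted modulators, rose 7.21-fold.

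Of 45 genes of the Bmp, Tgfb and Hedgehog pathways 15 rose and 1 fell, with a median of 0.648. Gli1, a factor induced by Hedgehog signals, had 0.676, 0.701 and 0 CPM in Ctrl and 7.74, 12.6, 41.8 and 50.7 CPM in EEDcKO. The older EEDcKO libraries, replicates 3 and 4, held the higher values. The ligand genes Gdf7 and Tgfb3 had log2 fold changes of 4.66 ± 0.68 and 1.11 ± 0.17, and the activin receptor gene Acvr1b 1.08 ± 0.18. The Acvr1b call was lost without Ctrl replicate 1 (0.94). Bmp3, a ligand that opposes other Bmp proteins, was the gene called lower (-1.60 ± 0.38).

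Of 24 Fgf ligands and receptors 6 rose and 1 fell, and the number that rose was 3 with the age-matched libraries, while 3 fell without EEDcKO replicate 3. The receptor gene Fgfr1 had 8.78, 9.47 and 12.4 CPM in Ctrl and 156, 156, 134 and 106 CPM in EEDcKO, with a log2 fold change of 3.78 ± 0.31 (adjusted p = 1.4e-08). The receptor gene Fgfr3 had 23.3, 20.3 and 21.4 CPM and 33, 40.2, 82.1 and 64.4 CPM, highest in the older libraries, and was not called with the age-matched libraries (0.75). The ligand genes Fgf9 and Fgf10 rose 4.34-fold and 8.7-fold. Fgf14, an intracellular relative of the ligands, had 225, 205 and 290.3 CPM in Ctrl and 43.4, 72.9, 10.2 and 2.78 CPM in EEDcKO and fell by 2.95 on the log2 scale.

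Of 22 Notch receptors, ligands and targets 7 rose and 1 fell, with a median of 0.684. The receptor gene Notch1 had 163, 206 and 229.6 CPM in Ctrl and 618, 813, 729 and 773 CPM in EEDcKO, and Notch3 22.3, 33.3 and 32.1 CPM and 178, 277, 169 and 148 CPM. Their log2 fold changes were 1.88 ± 0.15 and 2.73 ± 0.27 (adjusted p = 1.1e-08 and 1.6e-07). Heyl, a target of Notch signals, rose 3.87-fold, while the coactivator gene Maml2 was only just above the limit (1.03 ± 0.19) and fell below it without Ctrl replicate 1 (0.87). The gene called lower was Dll4, the Notch ligand with which cortical epithelium commits progenitors to the T cell lineage. The age-matched libraries gave 2 genes called lower in this list, as did the fit without Ctrl replicate 2.

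Collagen genes rose in 19 of 42 tested cases and fell in 1, with a median of 0.735, and the count was also 19 with the age-matched libraries. Col7a1, the collagen of anchoring fibrils under epithelia, had 16.9, 34.02 and 31.5 CPM in Ctrl and 274, 302, 212 and 319.8 CPM in EEDcKO. The hemidesmosomal Col17a1 had 56.1, 54.01 and 45.6 CPM and 168, 151, 227 and 228 CPM, and the fibrillar Col5a1 118, 120.3 and 131 CPM and 258, 295, 357 and 351 CPM. The rise thus included collagens of epithelial basement membranes as well as those of connective tissue. Col6a5 was the gene called lower (-1.53 ± 0.24), and 2 collagen genes were called lower without EEDcKO replicate 1 or 2.

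Keratin genes, which encode the epithelial intermediate filaments, were called lower more often than higher, with 2 of 24 higher, 8 lower, 14 not called and a median of -0.520. The shares were 8.33% higher and 33.3% lower, against 9.51% and 6.22% of all tested genes. Krt19, a keratin of simple epithelia, and Krt15, a keratin of basal cells, were the genes called higher, at 2.21-fold and 2.27-fold. Krt19 was not called without any one of Ctrl replicates 1 and 2 and EEDcKO replicate 2, and Krt15 without any one of Ctrl replicates 1 and 3 and EEDcKO replicate 2. Keratins of differentiated epidermis fell, among them Krt77 with 103, 79.6 and 69.8 CPM in Ctrl and 13.5, 28.02, 28.4 and 4.04 CPM in EEDcKO. Krt78, Krt10 and Krt1 had log2 fold changes of -2.58 ± 0.46, -1.81 ± 0.35 and -1.49 ± 0.40. Without EEDcKO replicate 1 the list had 5 genes called lower.

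Many genes of cortical thymic epithelium and of the Foxn1 programme fell. Of 18 tested genes 10 fell and 2 rose, with a median of -1.29, and 9 fell with the age-matched libraries. The summed CPM of the list was 4062 to 5988 in Ctrl and 1544 to 2721 in EEDcKO. Psmb11 (ENSMUSG00000072423, chr14:54621433-54629556), the proteasome subunit of cortical epithelium, had 232, 190.1 and 372 CPM in Ctrl and 52.9, 81.9, 5.76 and 4.04 CPM in EEDcKO. Prss16, the thymus-specific serine protease, had 571, 534 and 781 CPM and 135, 208, 47.8 and 41.6 CPM. Both were highest in the Ctrl library aged 1 day and lowest in the EEDcKO libraries aged 4 and 6 days, and at 1 day and at 2 to 3 days EEDcKO was below Ctrl. Their log2 fold changes were -2.92 ± 0.66 and -2.55 ± 0.48 (adjusted p = 0.0018 and 0.00039). Ly75, an endocytic receptor of cortical epithelium and dendritic cells, and Ctsl, the protease that processes the invariant chain in cortical epithelium, fell by 1.64 and 1.35 on the log2 scale.

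Ligands of the cortex followed. Dll4 had 166, 139 and 215 CPM in Ctrl and 30.6, 55.3, 11.7 and 5.3 CPM in EEDcKO, and Ccl25, the chemokine that attracts thymus-seeding progenitors, 284, 246 and 357 CPM and 60.9, 94.1, 36.04 and 30.03 CPM. Neither gene overlapped between the groups. Cd83, a stabiliser of MHC class II at the cell surface, fell by 3.13, and Tbata, a thymus-specific gene, by 2.37 on the log2 scale. Foxn1 itself, the regulator of thymic epithelium, had 203, 179.9 and 278 CPM in Ctrl and 104, 186, 134 and 93.4 CPM in EEDcKO, with overlap, and its log2 fold change of -0.77 ± 0.20 (adjusted p = 0.0048) was under the 2-fold limit. The 2 genes called higher were Tbx1 and Hoxa3, factors of the pharyngeal pouch from which the thymus arises, at 3.63-fold and 2.27-fold. Both calls were lost without Ctrl replicate 1 (adjusted p = 0.052 and 0.092), and 1 of the list was called higher without Ctrl replicate 2.

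**Figure D3:**
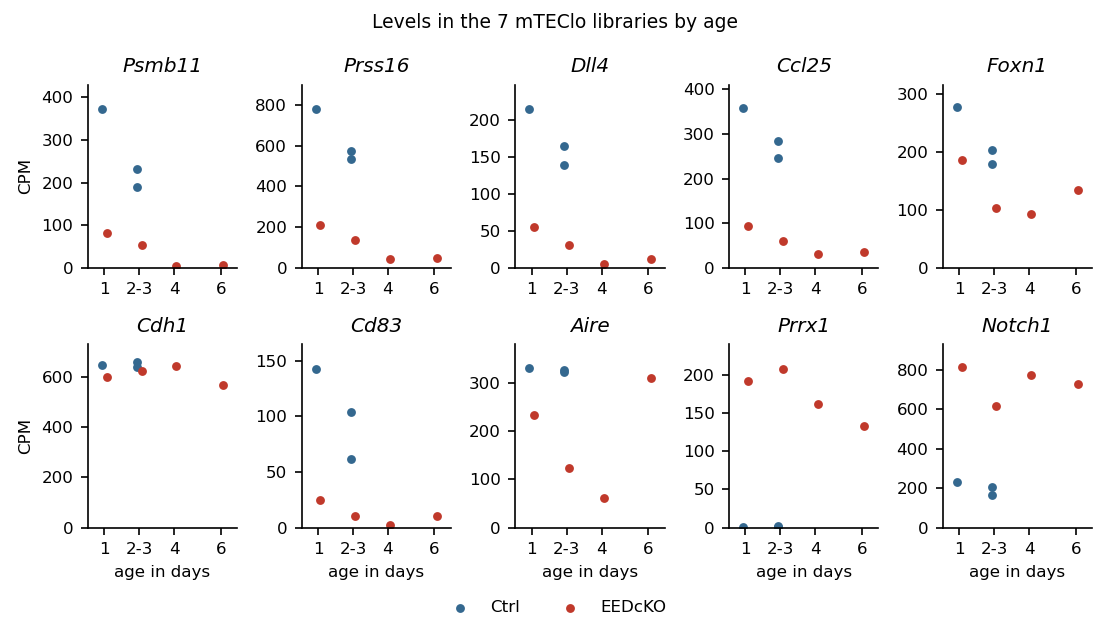
CPM of 10 genes in the 7 mTEClo libraries against the age of the mice in days, with 1 point per library, blue for Ctrl and red for EEDcKO. The cortical genes Psmb11, Prss16, Dll4 and Ccl25 were lower in EEDcKO at each age that both groups share, Cdh1 was level, and Prrx1 and Notch1 were high at all EEDcKO ages.

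Of 15 thymic chemokines 1 rose and 4 fell, 6.67% and 26.7% against 9.51% and 6.22% of all tested genes. Their median was -1.11, which was -0.391 without Ctrl replicate 2 and -0.699 without EEDcKO replicate 4. Without EEDcKO replicate 2, 7 of them fell. Cxcl12, which guides progenitors in the cortex, had 484, 468 and 666 CPM in Ctrl and 209, 225, 83.2 and 57.8 CPM in EEDcKO. Its call was lost with the age-matched libraries (-1.31, adjusted p = 0.080), as was that of Ccl20 (-1.82, adjusted p = 0.073), so that 2 of the 15 were then called lower. The Ccl20 call was also lost without Ctrl replicate 1 or EEDcKO replicate 1 or 3. Ccl2, a monocyte chemokine, fell 4.97-fold on low counts, and Cx3cl1, a membrane-bound chemokine, rose 2.37-fold.

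Of 23 mature mTEC genes 6 fell and none rose, with a median of -0.521, and 9 fell without EEDcKO replicate 3, aged 6 days, or with the age-matched libraries. The ligand genes Cd274 and Pdcd1lg2, which encode PD-L1 and PD-L2, had 325, 274 and 387 CPM and 41.9, 36.1 and 22.5 CPM in Ctrl, against 109, 163, 145 and 146 CPM and 9.09, 8.62, 18.8 and 19.2 CPM in EEDcKO. Cd274 and Cd83 are also in the cortical list. Tnfrsf11b, the decoy receptor of RANK ligand, had 177, 156 and 143 CPM and 27.6, 70.1, 87.6 and 40.6 CPM, a fall by 1.48 on the log2 scale (adjusted p = 0.0025). Aire had 324, 327 and 333 CPM in Ctrl and 124, 234, 312 and 60.6 CPM in EEDcKO. It was not called (log2 fold change -0.84 ± 0.41, adjusted p = 0.12), but was called without EEDcKO replicate 3, the library with the highest of the EEDcKO values (-1.24, adjusted p = 0.028).

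Receptors and mediators of NF-kB signalling in mTEC development were called in 2 of 21 cases. The shares were 4.76% higher and 4.76% lower, under the 9.51% and 6.22% of all tested genes. Tnfsf11, the gene of RANK ligand, was near 0 in Ctrl and had 2.36, 1.796, 8.103 and 6.81 CPM in EEDcKO, and Tnfrsf11b, a member here too, fell. With the age-matched libraries 4 genes of the list were called lower, and 3 without EEDcKO replicate 3. Of 20 mTEClo and basal mTEC genes 7 rose and none fell, with a median of 0.612. The proteoglycan gene Dcn had 32.1, 36.1 and 41.1 CPM in Ctrl and 219, 184, 208 and 237 CPM in EEDcKO, and the apolipoprotein gene Apoe 24.7, 29.5 and 46.7 CPM and 68.02, 91.97, 139 and 144 CPM. Dcn is also a marker of fibroblasts. Pdpn, a membrane glycoprotein of epithelial progenitors and stroma, rose 2.09-fold and was not called with the age-matched libraries (log2 fold change 0.92). With those libraries 4 genes of the list were called higher and 1 lower, and without Ctrl replicate 1 or Ctrl replicate 3 only 3 were called higher. Of 30 interferon-stimulated genes 2 rose and none fell, while 0 rose and 1 fell with the age-matched libraries. The share that rose, 6.67%, was under the 9.51% of all tested genes. Without Ctrl replicate 1 or EEDcKO replicate 3, 1 rose, and without Ctrl replicate 3 or EEDcKO replicate 4, 1 fell.

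The mimetic cell lists changed unevenly, beside 9.51% of all tested genes called higher and 6.22% lower. The list of enterocyte and hepatocyte genes had 10 of 20 called lower, none higher and a median of -1.41. Lypd8, a secreted protein of colon epithelium (ENSMUSG00000013643, chr11:58379043-58390728), had 27.02, 21.04 and 10.1 CPM in Ctrl and 0.337, 0.359, 0.853 and 0 CPM in EEDcKO. Cps1, the first enzyme of the urea cycle, had 13.5, 19.3 and 15.8 CPM and 7.41, 3.23, 0.6397 and 1.26 CPM. Alpi, intestinal alkaline phosphatase, and Vil1, the villin of microvilli, fell by 3.81 and 1.23 on the log2 scale. Each of these groups was without overlap, and 8 genes of the list fell with the age-matched libraries.

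The keratinocyte list had 5 of 17 genes called lower and 1 higher (Gata3, described above), with a median of -0.940, and 8 were called lower with the age-matched libraries. Dsg1a, a desmosomal cadherin of epidermis, had 199, 205 and 133 CPM in Ctrl and 33, 36.3, 88.1 and 73.2 CPM in EEDcKO. Of 15 tuft genes 3 fell and 1 rose, and none rose without Ctrl replicate 1 or 3. Pou2f3, the master regulator of tuft cells, had 59.8, 54.01 and 39.9 CPM and 19.9, 28.4, 27.1 and 19.4 CPM, and its log2 fold change was -1.12 ± 0.28 (adjusted p = 0.0043). Gnat3, a taste G protein, and the tuft gene Sh2d6 had log2 fold changes of -2.52 ± 0.81 and -1.71 ± 0.52. The Gnat3 call was lost without Ctrl replicate 3 or EEDcKO replicate 2 or 4, and the Sh2d6 call without Ctrl replicate 2.

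Of 19 muscle genes 3 were called higher and 3 lower. Without Ctrl replicate 1 the list had 1 higher and 1 lower, without Ctrl replicate 2 it had 2 higher and 1 lower, and without EEDcKO replicate 1 it had 5 higher and 1 lower. Myog, the factor of muscle differentiation, had 7.77, 8.07 and 12.9 CPM in Ctrl and 13.1, 40.96, 45.8 and 55.3 CPM in EEDcKO, whereas Ttn, the sarcomeric titin, had 1576, 1851 and 990.2 CPM and 341, 566, 654 and 670 CPM. Cardiac actin Actc1 and the calcium release channel gene Ryr1 were also called higher, at 1.89 ± 0.57 and 1.43 ± 0.44, and the sarcomeric Neb lower, at -1.0002 ± 0.37, beside the factor Myf6 given above. The Actc1 call was lost without any one of Ctrl replicates 1 and 2 and EEDcKO replicate 2. Ryr1 lost its call without EEDcKO replicate 4 or any one Ctrl replicate, and Neb without Ctrl replicate 1 or 2 or EEDcKO replicate 1, 2 or 3. Both were also not called with the age-matched libraries (0.94 and -1.05). Calls in both directions were thus found among regulators and among contractile genes, but those of Myf6, Actc1, Ryr1 and Neb depended on single libraries. Ciliated genes had 3 of 14 called higher and 2 lower. Trp73, the factor for multiciliated cells, rose 3.43-fold and the dynein gene Dnah11 3.02-fold, while the dynein gene Dnah9 fell 2.12-fold, a call lost with the age-matched libraries (-0.997) and without EEDcKO replicate 3 (-0.95). None of the list was called lower with the age-matched libraries or without EEDcKO replicate 3, and 1 was without Ctrl replicate 3.

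Endocrine genes had 4 of 20 higher and 5 lower, and 1 higher and 2 lower without Ctrl replicate 1. Without Ctrl replicate 2 or 3, 2 were higher. Chga, the granin of endocrine granules, had 4.73, 43.8 and 72.6 CPM in Ctrl and 218, 307, 10.4 and 152 CPM in EEDcKO, with overlap and a call lost without Ctrl replicate 1, Ctrl replicate 2 or EEDcKO replicate 2. Neurod1, an endocrine and neural factor, had 1.01, 0.359, 4.69 and 29.3 CPM in EEDcKO, highest in replicate 4. Its call was lost without that replicate, without any one Ctrl replicate, and with the age-matched libraries (log2 fold change 2.08). Among those called lower, the endocrine factor Insm1 had 61.5, 52.96 and 39.9 CPM in Ctrl and 9.09, 19.04, 38.4 and 6.81 CPM in EEDcKO, a call lost without Ctrl replicate 1. The synaptic fusion protein gene Snap25, the receptor gene Ret and the syntaxin-binding gene Stxbp5l had log2 fold changes of -1.90 ± 0.44, -1.42 ± 0.36 and -1.92 ± 0.58. Neither Ret nor Stxbp5l was called with the age-matched libraries (-0.86 and -1.76), and Stxbp5l was not called without Ctrl replicate 1. With the age-matched libraries 1 endocrine gene was called higher and 3 lower. Goblet and secretory genes had 3 of 18 higher and 2 lower, but 6 higher and 3 lower with the age-matched libraries, and 4 lower without EEDcKO replicate 3. Muc5b, a gel-forming mucin, had 258, 147 and 488 CPM in Ctrl and 1238, 1936, 520.3 and 362 CPM in EEDcKO, and lost its call without any one of Ctrl replicates 1 and 2 and EEDcKO replicates 1 and 2. Wfdc2, a secreted protease inhibitor, rose 2.68-fold. Of 11 ionocyte genes 2 rose, among them the proton pump gene Atp6v1b1 (3.77-fold), and 1 rose when any one library other than EEDcKO replicate 4 was left out. Of 11 microfold genes 2 rose and 1 fell, with none called among the age-matched libraries.

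Restricted antigens known to be presented in the thymus fell in 7 of 21 tested cases and rose in none. Their median was -1.30, or -0.964 when genes at 0 in a group are set at their bound. Csn2, the milk protein beta-casein, had 202, 192 and 158 CPM in Ctrl and 39.4, 63.6, 72.5 and 14.6 CPM in EEDcKO. Iapp, the pancreatic islet amyloid peptide, had 25, 31.9 and 28.1 CPM and 2.36, 10.4, 16.8 and 4.795 CPM. Pcp4, of cerebellar Purkinje cells, and the urinary protein gene Mup4, which has near-identical copies, were also called lower on a few counts per library. The Mup4 call was lost without Ctrl replicate 2 and with the age-matched libraries.

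**Figure D4:**
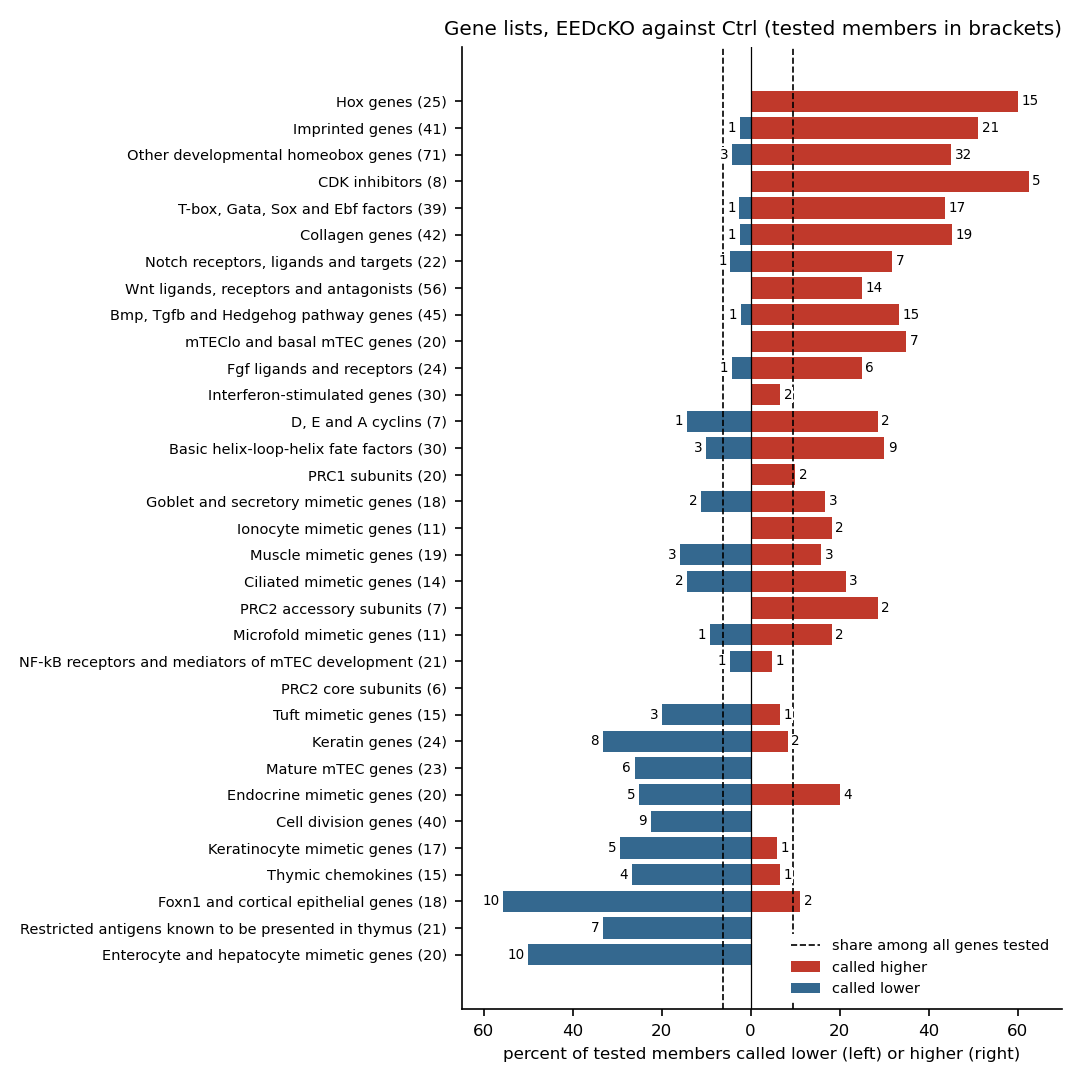
Percent of tested members called lower (blue, left) and higher (red, right) in EEDcKO for each list of study and mimetic cell genes, ordered by median log2 fold change, with the number of called genes beside each bar and the number tested in brackets. The dashed lines mark the shares among all tested genes, 6.22% lower and 9.51% higher. The marker lists of other cells and the immediate early genes are not plotted. Of the plotted lists, Hox, imprinted and homeobox genes and kinase inhibitors stand at the top, and enterocyte and hepatocyte genes, restricted antigens and cortical epithelial genes at the bottom.

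Lists drawn from the adult libraries, which share no library with the neonatal ones, gave a related view. In adult WT mice 4316 tested genes were higher in mTEChi than in mTEClo. Of these, 296 (6.86%) rose and 864 (20%) fell in neonatal mTEClo of EEDcKO mice, with a median of -0.469. Among all tested genes 9.51% rose and 6.22% fell. Of 2155 genes that were lower in adult mTEChi, 520 (24.1%) rose and 48 (2.23%) fell, with a median of 0.457. The direction of both medians was the same with the age-matched libraries (-0.558 and 0.370). Of 3233 genes that were lower in adult mTEChi of AireKO than of WT mice, 512 rose and 395 fell, with a median of 0.0133. Both shares, 15.8% and 12.2%, were above those of all tested genes. The AireKO libraries behind this list were from males only and reached older ages than the WT ones, which were from both sexes. A bulk list of this kind can also hold genes of cell types that are fewer without Aire.

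Markers of mesenchyme, of pericytes and smooth muscle, of macrophages and of B cells were called between the genotypes, as were immediate early genes. The remaining marker lists had fewer genes called each, and the shares among all tested genes were 9.51% higher and 6.22% lower. The 10 thymic epithelium markers were not called, their summed CPM being 2334 to 2676 in Ctrl and 2018 to 2563 in EEDcKO. Cdh1, epithelial cadherin, had 639, 657 and 646 CPM and 623, 599, 567 and 643 CPM. H2-Aa, the MHC class II chain on whose surface level the fraction was sorted, had 507, 497 and 579.5 CPM in Ctrl and 369, 362, 344 and 396 CPM in EEDcKO, without a call (adjusted p = 0.12). Mesenchyme and fibroblast markers were called higher in 9 of 15 tested cases and lower in 1 (2 with the age-matched libraries and without Ctrl replicate 3 or EEDcKO replicate 3), with a summed CPM of 663 to 823 in Ctrl and 1409 to 1929 in EEDcKO. Lum, a proteoglycan of connective tissue, had 5.07, 3.86 and 4.501 CPM in Ctrl and 54.5, 40.2, 47.6 and 57.3 CPM in EEDcKO. The intermediate filament gene Vim, in contrast, had 210.4, 217 and 201 CPM and 84.2, 114, 135 and 156 CPM, and the pericyte and fibroblast receptor gene Pdgfrb 45.3, 41.4 and 18.6 CPM and 23.6, 22.3, 22.8 and 6.31 CPM. Vim was called lower with the age-matched libraries (-1.09), and Pdgfrb was called lower without any one of Ctrl replicate 3 and EEDcKO replicates 1, 2 and 3. Mfap5, a microfibril gene, was the mesenchymal marker called lower (-2.16 ± 0.72), a call lost without Ctrl replicate 1 or EEDcKO replicate 1 or 2. Prrx1, Twist1, Col1a2, Dcn and Pdpn, given above, are members of the mesenchyme list, and the part of mesenchymal cells in their rise was not tested.

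Macrophage and dendritic cell markers were called lower in 4 of 19 tested cases and higher in none, with a summed CPM of 306 to 473 in Ctrl and 142 to 297 in EEDcKO. Without EEDcKO replicate 3, 7 were called lower, and 1 was called higher with the age-matched libraries or without EEDcKO replicate 4. Adgre1, the macrophage F4/80 antigen, had 18.9, 12.6 and 6.75 CPM in Ctrl and 0, 1.44, 1.07 and 0 CPM in EEDcKO. B cell markers fell in 4 of 7 cases, their summed CPM being 32.1 to 72.6 in Ctrl and 10.3 to 34.3 in EEDcKO, and Ighm, the heavy chain gene, fell by 2.46 on the log2 scale. Cybb is itself 1 of the 4 macrophage and dendritic cell markers called lower, and 15 of the 19 were not called. The part of these cells in the falls of Cybb, Mrc1 and Acod1 was not tested. Thymocyte markers were called higher in 1 of 12 cases (0 with the age-matched libraries or without EEDcKO replicate 4) and lower in none (2 without EEDcKO replicate 1 and 1 without Ctrl replicate 3), with a summed CPM of 120.4 to 174 in Ctrl and 162 to 218 in EEDcKO. The share of thymocyte markers called higher, 8.33%, was under the 9.51% of all tested genes. Cd3d, under the filter, had 1 count over the Ctrl and 3 over the EEDcKO libraries.

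Endothelium markers had 1 of 8 higher and 2 lower, and Pecam1 (CD31) lost its fall with the age-matched libraries (-0.76, adjusted p = 0.11), after which none of the list was called lower, and 1 was without any one of Ctrl replicate 1 and EEDcKO replicates 3 and 4. The single rise was lost without Ctrl replicate 2. Pericyte and smooth muscle markers had 4 of 8 higher, Notch3 among them, and 1 lower. Neural crest and glia markers had 1 of 9 higher and 1 lower, parathyroid and thyroid markers 1 of 8 higher (2 with the age-matched libraries and 0 without any one of Ctrl replicates 1 and 3 and EEDcKO replicate 4), and red cell markers 1 of 4 lower. The shares called higher for endothelium, neural crest and parathyroid markers, 12.5%, 11.1% and 12.5%, were near the 9.51% of all tested genes. Single calls in lists this short are not read as changes in these cells. Immediate early genes, which rise when tissue is dissociated, were called higher in 9 of 16 cases and lower in none, with a median of 1.24 and a summed CPM of 940 to 1035 in Ctrl and 1749 to 2049 in EEDcKO. Nr4a1 had 22.3, 18.9 and 18 CPM and 166, 120.4, 66.3 and 93.4 CPM, and Ier2 20.3, 21.4 and 34.9 CPM and 61.6, 83.4, 105 and 107 CPM. In mTEChi 6 of the 16 rose. Whether these genes changed in the tissue or during cell preparation was not tested.

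Loss of EED was also compared between the mTEClo and mTEChi fractions, the latter with 5 Ctrl and 3 EEDcKO libraries. The mTEChi Ctrl libraries were from mice aged 6 days (replicates 1 and 2), 2 to 3 days (replicates 3 and 4) and 1 day (replicate 5), and the EEDcKO libraries from mice aged 6 days, 2 to 3 days and 1 day, so that the ages of the 4 groups differ. Each mTEClo library except EEDcKO replicate 4 matches an mTEChi library of its genotype in age and sex. The labels do not say whether the fractions came from the same mice. The fit took all libraries as independent, and a pairing of the fractions was not tested. In mTEChi 8.48% of genes were called higher and 5.4% lower. The difference between the effects was called for 1.58% of genes, 0.97% with a more positive effect in mTEClo and 0.614% with a more negative one. The number was 178 without Ctrl replicate 3 of mTEClo, 200 without Ctrl replicate 1, 567 when the older EEDcKO libraries of mTEClo were left out, and 515 with libraries aged up to 3 days in all 4 groups. Of the genes called in mTEClo, 894 were called higher and 470 lower in both fractions, 12 rose in mTEClo and fell in mTEChi, and 7 did the reverse.

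Ebf3, described above, had 8.55 ± 2.26 CPM (SD, n = 5) in mTEChi of Ctrl and 9.23 ± 4.06 CPM (SD, n = 3) in mTEChi of EEDcKO, so that its rise was larger in mTEClo by 4.59 ± 0.58 on the log2 scale (adjusted p = 0.00021). Esr1, the estrogen receptor, went from 10.2 ± 3.86 CPM to 126 ± 27.1 CPM in mTEClo and from 17.9 ± 2.798 CPM to 26.4 ± 2.69 CPM in mTEChi. Lum rose in mTEClo, while its mTEChi means were 13.7 ± 5.54 CPM and 11.3 ± 2.03 CPM. Selenop, a secreted selenium carrier, rose 3.49-fold in mTEClo and had a log2 fold change of -0.92 ± 0.24 in mTEChi (adjusted p = 0.0047). Dcn and Col7a1, which rose in mTEClo, had effects larger there by 2.21 ± 0.29 and 2.23 ± 0.44.

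In the other direction, Ramp3, a modulator of peptide hormone receptors, had 25, 21.7 and 39.4 CPM in Ctrl and 2.69, 5.75, 6.82 and 5.05 CPM in EEDcKO of mTEClo, and 10.6 ± 2.17 CPM and 19.8 ± 1.34 CPM in mTEChi. Its effect was more negative in mTEClo by 3.33 on the log2 scale (difference -3.33 ± 0.37, adjusted p = 9.3e-05). Rab11fip4, of endosomal transport, and Ndrg3, of the Ndrg family, fell 2.47-fold and 2.59-fold in mTEClo and had mTEChi log2 fold changes of 0.16 ± 0.13 and 0.17 ± 0.14. Angptl2, a secreted angiopoietin-like protein, rose in mTEChi (1.03 ± 0.17, adjusted p = 8.2e-05) and had -0.76 ± 0.17 in mTEClo. Dll4 and Foxn1 differed between the fractions too, by -2.49 ± 0.63 and -1.17 ± 0.27, and so did Cd274, by -0.98 ± 0.24 (adjusted p = 0.03), which is below the 2-fold limit. Psmb11 and Prss16 did not pass the test of the difference, which was -1.69 ± 0.98 and -1.45 ± 0.67.

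**Figure D5:**
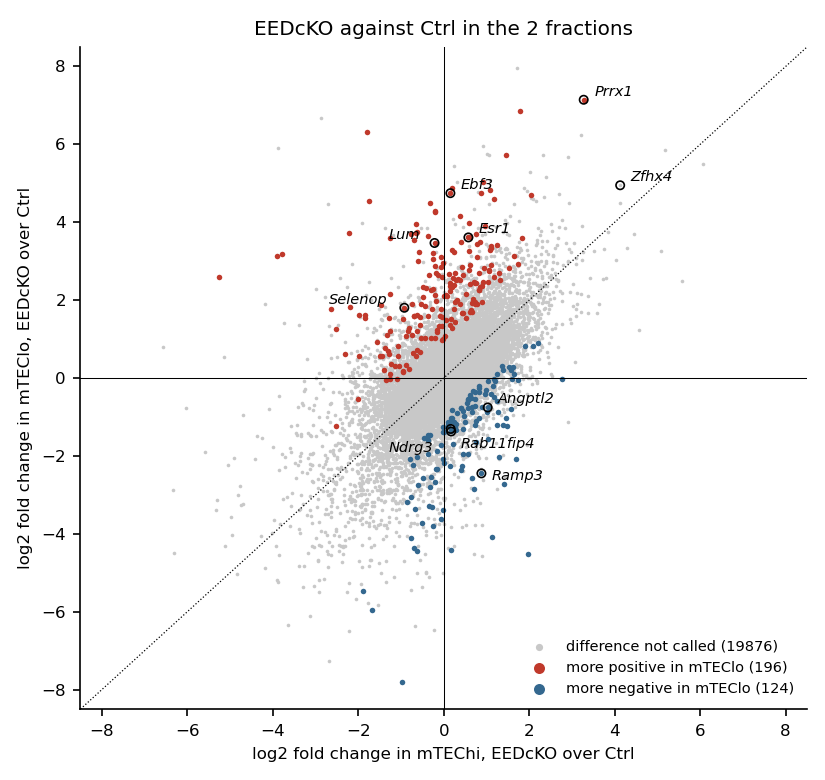
Log2 fold change of EEDcKO over Ctrl in mTEClo (vertical axis) against that in mTEChi (horizontal axis) for the 20196 tested genes. Red and blue points are the 196 and 124 genes whose effect was called more positive or more negative in mTEClo, grey points are all others, and the dotted line marks equal effects. Ebf3 and Lum lie near 0 in mTEChi and high in mTEClo, while Ramp3 has opposite signs.

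The 3 mTEClo libraries of AireEEDdKO mice, which lack Aire and EED, give further libraries without EED, with no neonatal mTEClo library lacking Aire alone beside them. They were from mice aged 4, 6 and 4 days, older than every Ctrl library of mTEClo. Their titles lack the bracketed code, as do those of the older EEDcKO libraries of mTEClo. Zfhx4 had 134, 133 and 138 CPM there, Prrx1 112, 102 and 135 CPM and Ebf3 41.3, 17.4 and 70.6 CPM, all above every Ctrl library. Notch1 had 728, 741 and 686 CPM and Meg3 476, 236 and 422 CPM. Psmb11 had 20.5, 15.4 and 14.8 CPM, Prss16 70.98, 68.1 and 54.6 CPM and Dll4 54.3, 26.7 and 16.2 CPM. Lypd8 had 0, 0.411 and 0.232 CPM and Apob 15.8, 32.2 and 1.39 CPM. These values are given as levels, with no test.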

How the data were processed

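Bulk RNA sequencing libraries of sorted neonatal mTEClo and mTEChi were analysed from 1 table of read counts per Ensembl gene, which the authors deposited as whole numbers. By the methods of the study and the submitters' processing notes, the authors trimmed reads with fastp 0.20.0, mapped them to mm10 (GRCm38) with STAR 2.7.3a, filtered them with SAMtools 1.9, removed duplicates with Picard 2.21.1 and counted with HTSeq 0.11.2 regardless of strand. The release of their annotation is not given in the sources used here. Removing duplicates without molecular identifiers flattens abundant genes, and counting without strand makes overlapping and antisense genes uncertain. The authors' normalized tables and their own comparisons were not used.

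Counts of all 24 neonatal libraries in 7 groups were filtered with filterByExpr, scaled by TMM and fitted together in edgeR 4.0.16 (R 4.3.3) with a quasi-likelihood model, which was tested on simulated data with known changes. Every tested gene entered the Benjamini-Hochberg adjustment of the 2-sided quasi-likelihood test. A call required an adjusted p under 0.05 and at least 2-fold. Common dispersion was 0.0392, a biological coefficient of variation of 19.8%. Fold changes use a prior count of 0.125, and floors of 3 counts per library cover counting error only. Symbols (99.57% of identifiers) and coordinates came from GENCODE release 21 on GRCm38. Adult lists came from the same test on the deposited counts of the 23 adult libraries.

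Named genes are Eed, Ezh1, Ezh2, Suz12, Aire, Foxn1 and Cdkn2a, the 12 largest rises and 12 largest falls among called genes that have a symbol, do not overlap between the groups, reach a mean of 10 CPM where they are higher and hold over 3 counts per library where they are lower, the 6 highest genes at 0 in Ctrl, up to 4 members of each list by smallest p in each direction, 4 genes in each direction for the test between fractions, and markers of the other cells. The members and lists were chosen with earlier results of these data known. Ebf3, Dcn, Col7a1, Dll4, Foxn1, Cd274, Psmb11 and Prss16 in the comparison of fractions, and the genes printed for AireEEDdKO and as promoters, were chosen after their values were seen. A pair of genes that this rule names is not reported here.

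Alternatives were other scalings (RLE, library size alone), other filters, fewer groups in the fit, age in days as a term, EEDcKO libraries aged up to 3 days only (age-matched), each replicate left out, replicate number as a block, DESeq2 1.42.0, a prior count of 2, other minimum changes and 4-fold adult lists. The first 250 transcribed bases, and the limit of 3 days in all 4 groups of the comparison of fractions, were added after the data were seen.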

Additional observations from a re-analysis of the deposited data

Results flagged for a closer look

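In 8 of the 166 named genes 1 EEDcKO library stood apart from the other 3 by Dixon's test, which chance alone gives in about 1 group in 20. Replicate 1 stood apart in Pecam1 (13.1 CPM), replicate 2 in Erv3 (2.16 CPM) and Ednrb (7.19 CPM), replicate 3 in Col6a5 (48.8 CPM), Pcp4 (0.426 CPM) and Gnat3 (15.8 CPM), and replicate 4 in Neurod1 (29.3 CPM) and Pdgfrb (6.31 CPM). Each value was the highest of its group except that of Pdgfrb, which was the lowest.

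The effect of EED loss differed between mTEClo and mTEChi in 27 named genes by edgeR's quasi-likelihood test of the difference, and values are the log2 effect in mTEClo minus that in mTEChi. Among transcription factors and Polycomb genes it was 4.59 for Ebf3, 3.87 for Prrx1, 2.64 for Gata6, 3.03 for Esr1, 1.84 for Trp73, 2.33 for Sfmbt2, -3.34 for Hand1, -5.21 for Bhlhe23 and -1.17 for Foxn1. Among receptors and ligands it was 4.50 for Ntrk3, 2.04 for Fgf9, -2.49 for Dll4, -3.33 for Ramp3 and -1.78 for Angptl2. Among matrix and secreted proteins it was 3.68 for Lum, 2.21 for Dcn, 2.23 for Col7a1, 1.11 for Col17a1 and 2.73 for Selenop. The intestinal genes Lypd8 and Alpi had -3.58 and -3.55, whereas Vil1, which fell further in mTEChi, had 1.29. The others were 4.60 for Plcl1, 2.93 for Slitrk4, 2.28 for Dnah11, -1.47 for Rab11fip4 and -1.55 for Ndrg3.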

How the results depend on the processing

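The number of called genes, 3177, was 6206 with no minimum change and 1168 at 4-fold, ranged from 2412 to 3304 when 1 replicate was left out, and lay between 2348 and 3404 under the other alternatives. The 320 genes with a different effect in the fractions became 566 with no filter on low counts, 567 with the age-matched libraries, 515 with libraries aged up to 3 days in all 4 groups, 159 at 4-fold and 178 to 421 when 1 replicate was left out. Other alternatives gave 246 to 437. The median of genes lower in adult mTEChi was 0.700 with a 4-fold list, against 0.457, and the other medians of adult lists moved by less than the SD over the 4 EEDcKO libraries (0.0936 to 0.228). The median of genes lower in adult AireKO mTEChi, 0.0133, was below 0 with RLE scaling (-0.0304), the age-matched libraries (-0.0646) and a 4-fold list (-0.10), all within the SD of 0.115. The CpG-rich share of genes called higher was 49.8% before the start, in the comparison that is void, and 58.3% in transcribed bases. The log2 fold change of Suz12, near 0, was 0.00682 with the age-matched libraries and ran from -0.152 to 0.0150 when 1 replicate was left out. The cause of these changes was not tested. Of 2960 values recomputed for 166 named genes, 2808 kept their direction and side of the threshold, 143 lost a call, 7 gained one and 2, both of Suz12, changed sign. Deviations of mTEClo Ctrl and EEDcKO libraries of the same replicate number were not positively correlated (-0.0895, -0.159 and -0.270). A fit with the replicate block called 2757 genes, 246 between fractions. Replicates 2 and 3 differed in age between the groups, so this check could not show a pairing by litter or between fractions. The lowest depth, 1805331 counts in Ctrl replicate 3, limits what low genes can show, and no library could separate age from genotype above 3 days.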
